A study of Mus musculus with 3 samples.

Results

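Conventional type 1 dendritic cells (cDC1) of the mouse spleen were described here as 3012 non-cycling cells, chosen from 38717 barcodes of 1 droplet capture. A barcode had to hold at least 500 detected genes, at most 10% mitochondrial UMIs (unique molecular identifiers, each standing for 1 captured RNA molecule) and a leading hashtag at least 5 times the second, which left 21547 cells with 1 hashtag. A cDC1 then had to hold at least 6 UMIs over Xcr1, Clec9a, Cadm1 and Naaa, with at least 1 from Xcr1 or Clec9a. Siglech, a plasmacytoid dendritic cell gene, was allowed up to 1 UMI, and Clec4a4, Dtx1 and Cd209a, genes of type 2 cells (cDC2), together up to 1. Ccr7 and Fscn1, genes of mature dendritic cells, were allowed up to 2 UMIs, and Slc4a1 and Alas2, genes of red cell precursors, none. Cells with 3 or more UMIs from Mki67, Top2a and Pclaf, genes of dividing cells, were set apart. Doublets were treated by the hashtag ratio and by these limits on genes of other lineages, and no doublet caller was run.

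The study dosed C57BL/6 mice for 2 days with panobinostat, an inhibitor of histone deacetylases that the hashtags name LBH, or with vehicle, named D5W. Spleen cells passed an Optiprep density gradient, a sort of cells without GFP and a magnetic removal of other cells, and carried a hashtag antibody together with tagged antibodies to CD11c and Siglec-H. The 4 groups were panobinostat-treated leukemia-bearing mice (hashtags AML_LBH1 and AML_LBH2), vehicle-treated leukemia-bearing mice (AML_D5W1 and AML_D5W2), panobinostat-treated mice without leukemia (WT LBH, 1 sample) and vehicle-treated mice without leukemia (WT D5W, 1 sample). The labels give neither age nor sex, nor the leukemia model, nor whether a hashtag is 1 animal or a pool, so p-values measure the spread between hashed samples of 1 capture.

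cDC1 are the dendritic cells that take up debris of dying cells and present its peptides on MHC class I to CD8 T cells, which is called cross-presentation. They depend on the transcription factors Irf8 and Batf3 and on the growth factor receptor Flt3, carry Xcr1, a chemokine receptor, and Clec9a, a receptor for exposed actin of dead cells, and sense double-stranded RNA through Tlr3. In the spleen they also make the T cell attracting chemokine Cxcl9 and respond to type I and type II interferon.

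The 6 hashed samples gave 304 and 236 cDC1 from panobinostat-treated leukemia-bearing mice, 312 and 205 from vehicle-treated ones, 653 from panobinostat-treated WT mice and 1302 from vehicle-treated WT mice. As a share of all cells with 1 hashtag they made up 9.74% and 11.1% in panobinostat-treated and 8.93% and 15.3% in vehicle-treated leukemia samples. They made up 21.8% in the panobinostat WT sample (exact 95% interval 20.4% to 23.4%, counting error only) and 15.4% in the vehicle WT sample (14.6% to 16.2%). Since the gate counts UMIs, these shares move with depth and were not tested. The median cDC1 held 10647 to 12811 UMIs and 2308 to 2719 genes over the samples, and the UMIs summed per sample ranged between 2845168 and 14965688. Vehicle-treated leukemia sample 2 was the smallest and the vehicle-treated WT sample the largest. Levels below are counts per 1000000 UMIs (CPM) of these sums, and a hashed sample, not a cell, is the replicate.

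The genes outside the rule matched the label. Tlr3 stood at 93.9 to 165 CPM over the 6 samples, against 5.11 to 11.3 CPM in 774 non-cycling cells chosen by the cDC2 genes and 0 to 7.15 CPM in 1487 cells chosen by Siglech. Irf8 reached 1349 to 1664 CPM in cDC1 and 58.9 to 209 CPM in the cDC2 gate, and was higher still in the Siglech-positive cells at 2631 to 2863 CPM. Rab7b and Ppt1, an endosomal GTPase and a lysosomal thioesterase, held 186 to 257 and 1397 to 1476 CPM in cDC1, against 0 to 6.92 and 53.8 to 105 CPM in the cDC2 gate. Zeb2, a repressor active in cDC2 and plasmacytoid cells, lay at 4.03 to 9.98 CPM in cDC1 and 112 to 210.4 CPM in the cDC2 gate. Among the rule's own genes, Xcr1 stood at 432 to 599 CPM, Clec9a at 250.5 to 305 CPM, Cadm1, an adhesion molecule, at 261 to 374 CPM and Naaa, a lysosomal amidase, at 742 to 985 CPM; these are descriptions, since the rule set them.

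**Figure D1:**
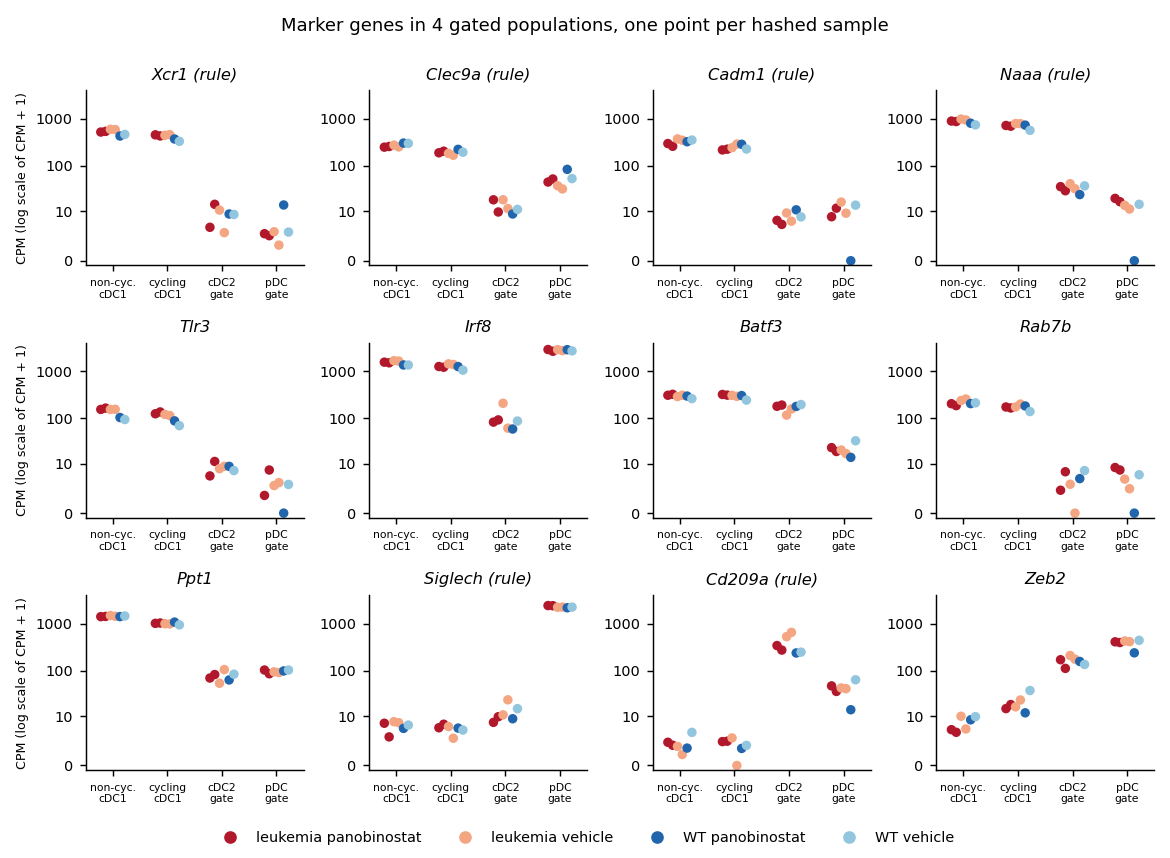
Levels in CPM (log scale of CPM + 1) of 12 genes in 4 gated cell classes, non-cycling cDC1, cycling cDC1, the cDC2 gate and the Siglech (pDC) gate, with 1 point per hashed sample coloured by condition. The panels marked (rule) show genes used for gating, while Tlr3, Rab7b and Ppt1 were not used and sit far above the cDC2 gate in all 6 cDC1 samples.

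The cell surface tags, which took no part in the gate, were read as UMIs per cell. The median CD11c tag per cell was 2435 and 2340.5 UMIs in panobinostat-treated leukemia samples, 2701.5 and 3047 in vehicle-treated ones, 2910 in the panobinostat WT sample and 2845 in the vehicle WT sample. Siglec-H tags stayed between 237 and 249 UMIs in cDC1, against 413 to 464 UMIs in the Siglech gate, where CD11c was 341.5 to 429 UMIs. Panobinostat and vehicle differed by -210.75 UMIs for CD11c (exact two-sided permutation within disease state, p = 0.333) and by -3 for Siglec-H (p = 0.667). Neither could pass a threshold of 0.05, because 12 arrangements allow no p below 0.167.

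The gate's edges were gradual. Members held 6 to 131 UMIs of the 4 marker genes with a median of 21. The 82 cells at exactly 6 marker UMIs had 60.4 CPM of Tlr3, the 93 cells at 5 UMIs, just outside, had 50.3 CPM, and the 2437 cells with none had 5.22 CPM. At the other edge, 202 members carried 2 cycling UMIs and 102 cells with 3 lay outside. Cells with 3 or more cycling UMIs made up 25.9% and 36.9% of all cDC1 in panobinostat-treated and 22.4% and 28.3% in vehicle-treated leukemia samples, 29.7% in the panobinostat WT sample and 16.2% in the vehicle WT sample. The cycling cells held more RNA, with medians of 18261.5 to 20582 UMIs.

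RNA of other lineages was present at low levels. Red cell genes summed to 727 to 1353 CPM, led by Hbb-bs, although Slc4a1 and Alas2 were at 0 by the rule. The 8 cDC2 markers summed to 118 to 151 CPM, led by Clec12a with 4519 UMIs over all samples, against 222 for Sirpa, the next. Clec12a itself stood higher in cDC1 than in the cDC2 gate, so this sum is no measure of cDC2 RNA. The 7 macrophage markers summed to 39.3 and 75.5 CPM in panobinostat-treated and 27.4 and 26.0 CPM in vehicle-treated leukemia samples, and to 105 CPM in the panobinostat and 61.5 CPM in the vehicle WT sample; Hmox1 was the most abundant, and 0 of the 7 were undetected in every sample. B cell markers summed to at most 41.4 CPM and T and NK cell markers to at most 2.67 CPM.

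By variance over mean, cells within a sample differed most in a small group of genes. After each cell was thinned to 2000 UMIs, which left out at most 11 cells of a sample, 1541 genes had a mean of at least 0.1 UMIs in each sample. Their variance over mean (the Fano factor, 1 for pure counting noise) was under 1.1 for 1156 genes and over 2 for 31. Malat1, a nuclear noncoding RNA, led with a median Fano factor of 73.7 (54.7 to 92.8 over the 6 samples). Cxcl9 followed at 7.63, with a mean of 1.05 to 2.39 UMIs per thinned cell, so that the chemokine message was spread unevenly among cells of each sample. Cst3, the cystatin C gene that cDC1 express strongly, had 7.17, Hbb-bs 6.83, Gm42418, a predicted locus over ribosomal RNA sequence, 5.71 and Tmsb4x, an actin-binding peptide, 5.43. Lyz2, Actb, Cd74, the immediate early genes Jun and Fos, Ftl1 and the mitochondrial mt-Co3, mt-Co1 and mt-Atp6 completed the 15 genes with the largest Fano factor, between 2.61 and 4.74. The Fano factor tends to be larger for abundant RNA, and Cst3 had a mean of 58.9 to 80.0 and Tmsb4x of 79.1 to 92.5 UMIs. The rank is therefore no order of relative variation. Across the cells of a sample Malat1 and Tmsb4x ran opposite. The Pearson r of the logarithm of count + 1 was -0.55 to -0.45 over the 205 to 1291 cells of each sample, all of which share a fixed total of 2000 UMIs.

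cDC1 were set beside the cDC2 gate only as a description. Of 10525 genes tested in a fit with the hashed sample as block, 4260 differed (40.5%), with 2212 higher (21.0%) and 2048 lower (19.5%) in cDC1, and nothing is read from that count because the same contrast chose the cells. All 19 tested cDC1 features outside the gate were on the higher side. Among genes at 20 CPM or more, the largest fold belonged to Hk3, a hexokinase, at 27.4 to 34.6 CPM against 0 to 2.18 CPM. The 10 largest included Itgae, the CD103 integrin chain, at 61.7 to 82.9 against 0 to 2.13 CPM, and Gcsam at 80.05 to 109 against 0 to 2.66 CPM. Lowest relative to the cDC2 gate, by the same rule, were Cr2, Mgl2 and Clec4a3, with Mgl2, a C-type lectin, at 0 to 0.847 CPM in cDC1 against 2.66 to 231 CPM. Of the class I and cross-presentation genes 16 of 22 stood higher and 1, Cybb, lower; Tap1, which pumps peptides into the endoplasmic reticulum, held 196 to 264 CPM against 76.3 to 124 CPM. Of 17 cathepsin and lysosome genes 4 stood higher, Cst3, Ppt1, Psap and Grn, and 11 lower, among them Ctsh at 199 to 245 against 481 to 599.8 CPM, and of 41 interferon-stimulated genes 24 stood lower and 8 higher. The cDC2 gate was mixed: plasmacytoid markers summed in it to 432 to 1370 CPM and B cell markers to 95.6 to 467 CPM.

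Few genes were called for panobinostat in cDC1, and most of those rose. A gene without a call is not thereby shown to be unchanged. With disease state in the model, 84 of 9772 genes differed between panobinostat and vehicle at an adjusted p under 0.05 (0.86%, edgeR quasi-likelihood test with Benjamini-Hochberg adjustment over all genes), of which 70 rose (0.716%) and 14 fell (0.143%). The leading genes were Lgals1, Serpinb1a, Ccr2 and Ly6a, with smaller rises over protein folding genes of the endoplasmic reticulum and over DNA replication genes. Cd207, Hepacam2 and Sult1a1 were among those that fell, Cd207 without a call by DESeq2 (adjusted p = 0.67). The median log2 fold change over all genes was -0.0016.

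Lgals1 (ENSMUSG00000068220, chr15:78926725-78930465) encodes galectin-1, a secreted lectin. It stood at 132 and 123 CPM in panobinostat-treated leukemia samples and 64.9 CPM in the panobinostat WT sample, against 62.7 and 56.9 CPM in vehicle-treated leukemia samples and 22.5 CPM in the vehicle WT sample. Within each disease state the treatments did not overlap, and the panobinostat WT sample lay near the leukemia vehicle samples (log2 fold change 1.30 ± 0.09 SE, adjusted p = 1.8e-06). Serpinb1a (ENSMUSG00000044734, chr13:32842092-32851185), an inhibitor of granule serine proteases, had 40.9 and 62.4 CPM in panobinostat-treated leukemia samples and 24.4 CPM in the panobinostat WT sample, against 10.5 and 11.95 CPM and 8.75 CPM with vehicle. All panobinostat samples exceeded all vehicle samples (log2 fold change 1.89 ± 0.18 SE, adjusted p = 8.5e-05).

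Ccr2 (ENSMUSG00000049103, chr9:124101950-124113557), the receptor for the monocyte chemoattractant Ccl2, had 34.6 and 43.6 CPM in panobinostat-treated leukemia samples and 13.7 CPM in the panobinostat WT sample, against 15.4 and 7.03 CPM and 4.14 CPM with vehicle. The WT panobinostat value fell between both leukemia vehicle samples, while each disease state separated (log2 fold change 1.76 ± 0.19 SE, adjusted p = 2.2e-04). Ly6a (ENSMUSG00000075602, chr15:74994877-74998031), the interferon-inducible surface protein Sca-1, had 102 and 131 CPM in panobinostat-treated leukemia samples and 48.7 CPM in the panobinostat WT sample, against 55.03 and 59.4 CPM and 28.2 CPM with vehicle. The treatments separated within each disease state (log2 fold change 0.97 ± 0.11 SE, adjusted p = 2.2e-04). Lgals1 and Ly6a are abundant in the Siglech gate of the same capture, at 985 to 1961 and 1697 to 2547 CPM. The 7 plasmacytoid markers summed in cDC1 to 244, 230 and 194 CPM with panobinostat against 232, 212 and 188 CPM with vehicle (leukemia 1, leukemia 2 and WT). Bst2, also one of the interferon-stimulated genes listed, led these sums with 4866 UMIs over all samples, against 887 for Ccr9, the next. Siglech was limited by the rule, so the sums are no clean measure of plasmacytoid RNA. The part of such RNA in these results was not tested.

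The cycling cDC1, which lie outside the gate, gave values on the same side. Serpinb1a there stood at 50.1, 63.9 and 31.2 CPM with panobinostat against 15.2, 14.9 and 13.3 CPM with vehicle, each as leukemia 1, leukemia 2 and WT. Ccr2 had 18.5, 21.6 and 8.08 CPM with panobinostat against 5.64, 7.19 and 3.13 CPM with vehicle. These cells come from the same hashed samples and are no further replicates.

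Other leading genes that rose were Vwf, the von Willebrand factor of hemostasis (56.1, 56.7 and 49.3 CPM with panobinostat against 40.2, 36.6 and 27.1 CPM with vehicle; log2 fold change 0.73 ± 0.09 SE, adjusted p = 0.0017), Zyx, a focal adhesion protein (log2 fold change 0.54 ± 0.08 SE, adjusted p = 0.0035), and Tmsb10, which binds actin monomers (log2 fold change 0.36 ± 0.05 SE, adjusted p = 0.0035). Hspb1, a small heat shock protein, was carried by 1 sample: 7.60 and 9.39 CPM in panobinostat-treated leukemia samples and 29.8 CPM in the panobinostat WT sample, against 4.10 and 5.98 CPM and 5.55 CPM with vehicle. The log2 fold change was 1.93 ± 0.25 SE, adjusted p = 0.0017, and the gene was no longer called without the panobinostat WT sample, without the vehicle WT sample, or in the leukemia samples alone. Genes of neutrophils and macrophages were also among those called. S100a8 stood at 8.12, 0 and 11.98 CPM with panobinostat against 0, 0 and 0.468 CPM with vehicle, and Hmox1, heme oxygenase 1, at 25.7, 47.6 and 54.7 against 12.5, 11.95 and 31.4 CPM. The sums of the 7 monocyte and neutrophil markers, Ccr2 among them, overlapped between treatments. They were 249, 253 and 303 CPM with panobinostat against 279, 240 and 253 CPM with vehicle. Lyz2 led them with 8323 UMIs over all samples, against 558 for Ly6c2 and 517 for Ccr2. The overlap is therefore mainly that of Lyz2 and says little about the other markers. The part of monocyte and neutrophil RNA in the results was not tested.

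**Figure D2:**
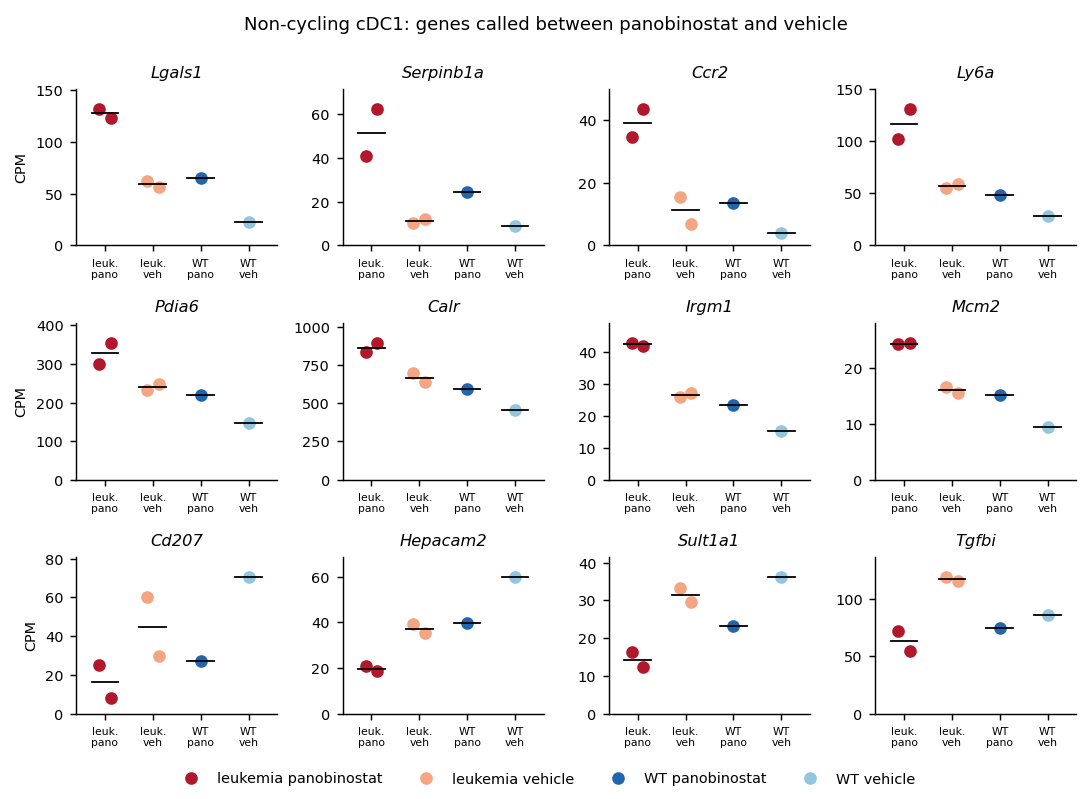
Levels in CPM of 12 genes in non-cycling cDC1, 1 point per hashed sample, with groups in the order leukemia panobinostat, leukemia vehicle, WT panobinostat and WT vehicle and a black line at each group's mean. Lgals1, Serpinb1a, Ccr2, Ly6a, Pdia6, Calr, Irgm1 and Mcm2 lie higher with panobinostat in both disease states, and Cd207, Hepacam2, Sult1a1 and Tgfbi lower.

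Of the 14 genes that fell, Cd207 (ENSMUSG00000034783, chr6:83671215-83677857) encodes langerin, a C-type lectin that marks splenic cDC1 among dendritic cells. It had 24.9 and 8.05 CPM in panobinostat-treated leukemia samples and 26.99 CPM in the panobinostat WT sample, against 60.1 and 29.5 CPM and 70.4 CPM with vehicle. Each disease state separated, with the panobinostat-treated leukemia samples far apart from each other (log2 fold change -1.37 ± 0.22 SE, adjusted p = 0.0068). Hepacam2, an adhesion molecule of the immunoglobulin family, fell to 20.96 and 18.5 CPM in panobinostat-treated leukemia samples and 39.9 CPM in the panobinostat WT sample, against 39.4 and 35.1 CPM and 59.8 CPM with vehicle, which did not overlap within a disease state (log2 fold change -0.70 ± 0.10 SE, adjusted p = 0.0035). The sulfotransferase gene Sult1a1 (log2 fold change -0.82 ± 0.12 SE, adjusted p = 0.0037), the transferrin gene Trf (-1.02 ± 0.18 SE, adjusted p = 0.011), the matrix protein gene Tgfbi (-0.56 ± 0.11 SE, adjusted p = 0.030) and Mospd1 (-0.79 ± 0.15 SE, adjusted p = 0.019) fell too. Smaller changes past the threshold were those of Gm38832 (-0.68), Gm3448 (-0.71), Ankrd12 (-0.35) and Ccnl1 (-0.33), given as log2 fold changes.

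Protein folding genes of the endoplasmic reticulum rose with panobinostat in part. Of 19 tested 7 rose and none fell (median log2 fold change 0.25, 17 positive), against 0.716% of all genes that rose. Pdia6 (ENSMUSG00000020571, chr12:17266545-17284770), a disulfide isomerase, stood at 301 and 354 CPM in panobinostat-treated leukemia samples and 220.1 CPM in the panobinostat WT sample, against 232 and 247 CPM and 146 CPM with vehicle. Within each disease state the panobinostat samples were the higher ones, and the panobinostat WT sample lay just under the leukemia vehicle samples (log2 fold change 0.55 ± 0.08 SE, adjusted p = 0.0031). Calr, the calcium-binding chaperone calreticulin that also loads MHC class I, had 832, 891 and 589.6 CPM with panobinostat against 695, 637 and 456 CPM with vehicle, each as leukemia 1, leukemia 2 and WT (log2 fold change 0.42 ± 0.06 SE, adjusted p = 0.0035). Pdia4, Creld2, Sdf2l1, Manf and Hspa5, the chaperone BiP, rose by log2 fold changes of 0.58, 0.58, 0.43, 0.41 and 0.33. The count for the list ran between 2 and 9 when 1 hashed sample was left out, and was 3 after thinning.

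The endoplasmic reticulum stress element, CCAAT and CCACG with 9 bases of any kind between them, is the DNA site through which the unfolded protein response is known to switch on chaperone genes. Both strands of the 250 bases before each RefSeq start (GRCm38.p6) were searched: 7 of 18 promoters of the list hold it (38.9%), 5 of 8 promoters of the list's genes that rose with panobinostat or in leukemia hold it (62.5%), and 0.113% of 32851 promoters of all genes do. Promoters of 3 genes that rose with panobinostat are shown for this site, the matching bases in capitals, on the gene's strand, Pdia6 at chr12:17266339-17266588, plus strand, Calr at chr8:84846932-84847181, minus strand and Creld2 at chr15:88819396-88819645, plus strand.
Pdia6: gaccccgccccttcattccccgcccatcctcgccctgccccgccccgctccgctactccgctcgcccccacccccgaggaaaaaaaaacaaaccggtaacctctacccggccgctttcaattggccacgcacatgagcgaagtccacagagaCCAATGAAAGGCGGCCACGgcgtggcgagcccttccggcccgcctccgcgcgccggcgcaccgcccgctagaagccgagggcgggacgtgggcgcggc
Calr: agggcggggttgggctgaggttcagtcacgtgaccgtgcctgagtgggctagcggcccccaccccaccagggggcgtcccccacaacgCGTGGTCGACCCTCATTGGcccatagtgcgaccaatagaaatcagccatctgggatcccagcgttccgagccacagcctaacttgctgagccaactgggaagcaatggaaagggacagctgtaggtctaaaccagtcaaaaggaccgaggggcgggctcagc
Creld2: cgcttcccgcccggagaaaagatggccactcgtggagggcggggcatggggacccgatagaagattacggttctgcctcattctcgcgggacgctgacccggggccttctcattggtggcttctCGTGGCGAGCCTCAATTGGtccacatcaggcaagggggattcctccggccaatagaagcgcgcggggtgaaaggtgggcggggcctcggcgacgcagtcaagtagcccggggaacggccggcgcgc
A match is a description of letters and no measure of binding. Counted from the transcription start, the match began at position -98 in Pdia6, -162 in Calr and -126 in Creld2.

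DNA replication genes stayed detectable after the cells with 3 or more cycling UMIs were removed. Of 26 tested genes of S phase and mitosis outside the gate 7 rose and none fell, with 25 positive and a median log2 fold change of 0.40, against 0.716% of all genes that rose. Mcm2, a subunit of the replicative helicase, had 24.4 and 24.5 CPM in panobinostat-treated leukemia samples and 15.2 CPM in the panobinostat WT sample, against 16.6 and 15.5 CPM and 9.49 CPM with vehicle. The treatments did not overlap within a disease state (log2 fold change 0.67 ± 0.13 SE, adjusted p = 0.016). Mcm2 was not called by DESeq2, after thinning, in the leukemia samples alone, or without panobinostat-treated leukemia sample 2, vehicle-treated leukemia sample 1 or either WT sample. Its partners Mcm3 and Mcm7 rose by 0.56 and 0.83, Gins2, another helicase component, by 0.88, Uhrf1, which keeps DNA methylation through replication, by 0.85, and the microtubule genes Stmn1 and Tuba1b by 0.48 and 0.47 on the log2 scale. Among members with no cycling UMI at all, 67.8% to 72.4% of each sample, 5 genes of the list rose, by DESeq2 2, after thinning none, and between 0 and 8 when 1 hashed sample was left out. Members with 2 cycling UMIs made up 8.88%, 8.90% and 7.81% of each sample with panobinostat (leukemia 1, leukemia 2 and WT). With vehicle they made up 7.05%, 4.88% and 5.45%, so the treatments did not overlap. The share of cells with 3 or more cycling UMIs, given above, was also higher with panobinostat in the WT pair. In leukemia-bearing mice that share overlapped between treatments. The part of either share in these levels was not tested.

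Some interferon genes rose with panobinostat. Of 35 interferon-stimulated genes 4 rose, Ly6a, Ifitm3, which blocks virus entry, Zbp1, a sensor of Z-form nucleic acid, and Ifi27l2a, and none fell (median log2 fold change 0.19), against 0.716% of all genes that rose. DESeq2 called 2 genes of the list and thinning left 1. The log2 fold change was 0.49 ± 0.09 SE, adjusted p = 0.015, for Ifitm3, 0.59 ± 0.12 SE, adjusted p = 0.025, for Zbp1 and 0.54 ± 0.12 SE, adjusted p = 0.040, for Ifi27l2a. Of 19 genes responsive to interferon gamma 18 were positive (median 0.39), and Irgm1, a GTPase that guards against intracellular microbes, passed the test with 42.7 and 41.9 CPM in panobinostat-treated leukemia samples and 23.4 CPM in the panobinostat WT sample, against 25.9 and 27.1 CPM and 15.2 CPM with vehicle (log2 fold change 0.69 ± 0.10 SE, adjusted p = 0.0035). Targets of type I interferon known for low resting levels had few UMIs: Ifit1 was at most 2.54 CPM and Rsad2 at most 5.24 CPM in any sample.

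Of 22 class I and cross-presentation genes 3 rose with panobinostat, against 0.716% of all genes: Calr, Pdia3, a disulfide isomerase of the loading complex (log2 fold change 0.32 ± 0.07 SE, adjusted p = 0.033), and Psmb8, an immunoproteasome subunit (0.25 ± 0.05 SE, adjusted p = 0.038), with a list median of 0.11. Calr was also counted in the endoplasmic reticulum list above, so both counts share this gene. Pdia3 and Psmb8 were not called among members with no cycling UMI, after thinning, without panobinostat-treated leukemia sample 2 or without vehicle-treated leukemia sample 1. Psmb8 was not called without the other leukemia samples either. B2m, the class I light chain, held 1457, 1520.3 and 1302 CPM with panobinostat against 1341, 1305 and 1320.0 CPM with vehicle, and did not pass (adjusted p = 0.31). Wdfy4, which cDC1 need for cross-presentation, held 361 to 404 CPM over all samples. None of 13 class II genes, 18 pattern recognition genes, 21 lineage transcription factors, 17 growth factor and cytokine receptors, 15 costimulation and checkpoint genes or 20 maturation genes passed in either direction, where 0.86% of all genes did. At an unadjusted p under 0.05 edgeR put 694 of all genes higher and 509 lower. Among cDC1 features outside the gate, Cd8a, the CD8 alpha chain that splenic cDC1 carry, rose (528, 599.6 and 538 CPM against 463, 412 and 461 CPM; log2 fold change 0.36 ± 0.07 SE, adjusted p = 0.032), Ifi205 rose by 0.34 and Cd207 fell, of 19 tested. Cd8a was not called after thinning or when panobinostat-treated leukemia sample 2 or either vehicle-treated leukemia sample was left out.

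None of 11 histone deacetylases, the drug's own targets, was called (median log2 fold change -0.06). With 0.86% of all genes called, nothing is read from that count. Hdac1 stood at 75.98, 68.8 and 60.6 CPM with panobinostat against 65.5, 72.1 and 57.9 CPM with vehicle. None was called of 13 acetyltransferases and bromodomain readers, of 15 genes known to rise with deacetylase inhibition in other cells (median 0.07), of 17 BCL2 family and caspase genes or of 14 glycolysis genes. Cdkn1a, the p21 cell cycle inhibitor that such drugs often induce, had 22.5 and 21.1 CPM in panobinostat-treated leukemia samples and 11.9 CPM in the panobinostat WT sample, against 12.5 and 18.98 CPM and 17.9 CPM with vehicle. Those groups overlapped, and the log2 fold change was 0.02 ± 0.20 SE, adjusted p = 0.98. Of the remaining lists, Ccl4, a chemokine (0.82), Lgmn, an endosomal protease (0.79), Cst3 (0.22) and the stress factor Atf3 (0.53) rose on the log2 scale. Atf3 and Lgmn were not called by DESeq2 or after thinning, Ccl4 not among members with no cycling UMI, and Cst3 not when either vehicle-treated leukemia sample was left out.

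**Figure D3:**
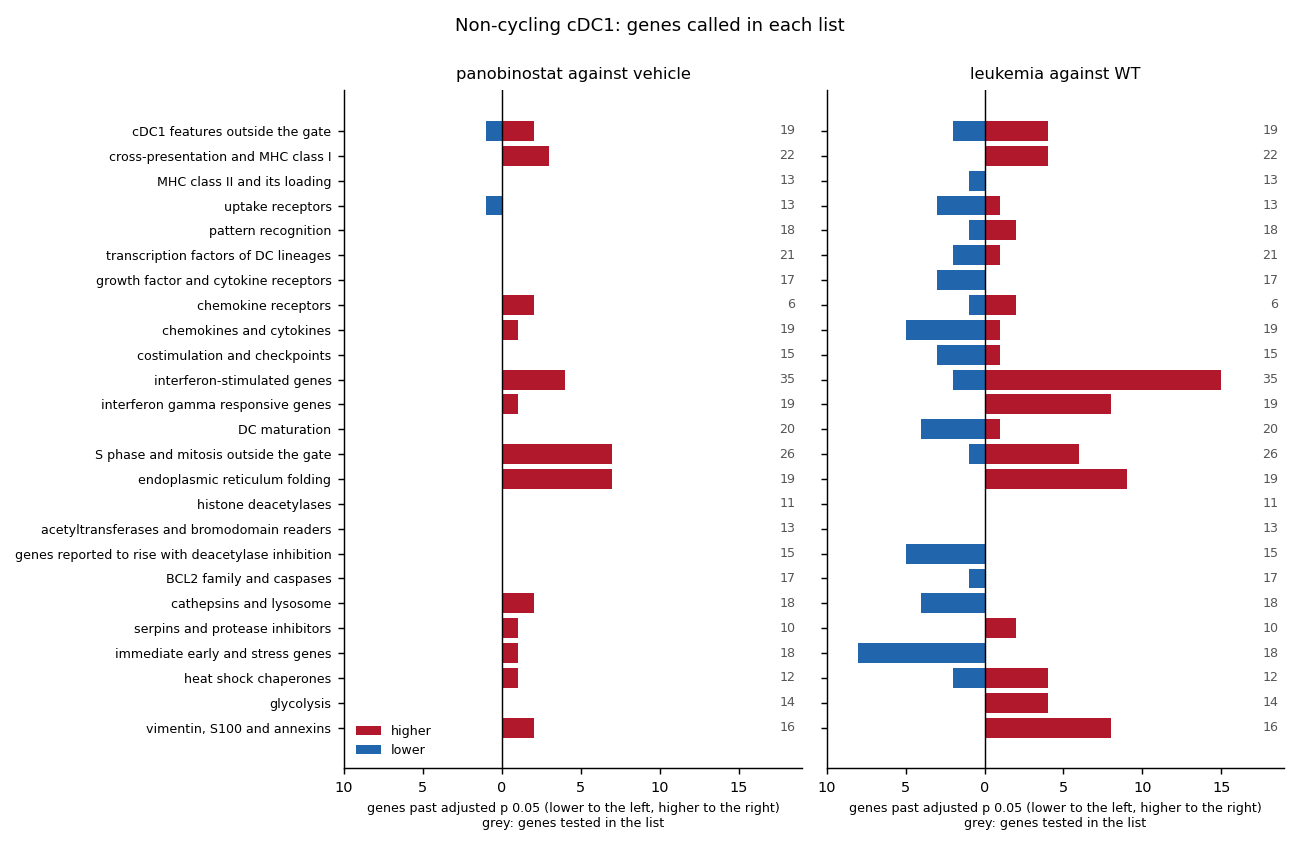
Number of genes called in each of 25 lists in non-cycling cDC1, higher to the right in red and lower to the left in blue, with the number tested in grey, for panobinostat against vehicle and for leukemia against WT. Panobinostat calls gather in the endoplasmic reticulum and S phase lists with 7 each, and leukemia calls include 15 and 8 higher in the interferon lists, 9 in the endoplasmic reticulum list and 8 in the vimentin list, with 8 lower in the immediate early list.

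The number of calls rested on single samples more than the directions did. Leaving out 1 hashed sample gave 24 genes without panobinostat-treated leukemia sample 2, 22 without vehicle-treated leukemia sample 1, 176 without the panobinostat WT sample and 184 without the vehicle WT sample, and all 84 genes kept their direction in each of these fits. Lgals1, Serpinb1a, Ccr2, Ly6a, Vwf, Pdia6, Calr, Zyx and Sult1a1 were called under all 19 alternatives tried. Cd207 was not called by DESeq2 (adjusted p = 0.67) or without vehicle-treated leukemia sample 1, and Hepacam2 and Irgm1 were not called after thinning. Interferon-stimulated genes called ran between 1 and 5 when 1 hashed sample was left out.

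In cDC1 of leukemia-bearing mice part of the interferon-inducible and endoplasmic reticulum genes, with Anxa1 and Anxa2, stood higher than in WT mice, and Apoe, Ptgis, Il1b and part of the immediate early genes stood lower. With treatment in the model, 829 of 9772 genes differed between leukemia-bearing and WT samples (8.48%, edgeR quasi-likelihood test), 339 higher (3.47%) and 490 lower (5.01%). The WT group holds 1 sample of each treatment, and the median log2 fold change over all genes was 0.01.

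Anxa2 (ENSMUSG00000032231, chr9:69453620-69491795), a membrane-binding annexin, had 89.1, 80.9, 83.7 and 70.6 CPM in leukemia samples (panobinostat 1 and 2, then vehicle 1 and 2) against 31.2 and 30.00 CPM in WT samples (panobinostat, then vehicle). The groups did not overlap (log2 fold change 1.31 ± 0.09 SE, adjusted p = 4.6e-07). Ifi211, an interferon-inducible nuclear protein gene, had 105, 99.99, 109 and 102 CPM in leukemia against 48.9 and 43.7 CPM in WT (log2 fold change 1.08 ± 0.08 SE, adjusted p = 7.6e-07). Iigp1 (ENSMUSG00000054072, chr18:60376027-60392634), an interferon-inducible GTPase, had 19.6, 27.8, 20.7 and 10.2 CPM in leukemia against 5.20 and 2.27 CPM in WT, again without overlap (log2 fold change 2.37 ± 0.25 SE, adjusted p = 4.0e-05). Ahnak, a large scaffold protein, and Tspo, of the outer mitochondrial membrane, stood higher with log2 fold changes of 1.22 and 0.66.

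Interferon-stimulated genes stood higher in part. Of 35 tested 15 stood higher and 2, Ifitm2 and Epsti1, lower (median log2 fold change 0.51, 33 positive), against 3.47% higher and 5.01% lower among all genes. Irf7, the factor that amplifies type I interferon, had 74.9, 55.4, 79.1 and 76.6 CPM in leukemia against 37.4 and 36.5 CPM in WT (log2 fold change 0.87 ± 0.10 SE, adjusted p = 8.6e-05). Slfn5, a schlafen gene, had 75.7, 58.05, 88.3 and 69.6 CPM in leukemia against 34.7 and 38.7 CPM in WT (log2 fold change 0.90 ± 0.11 SE, adjusted p = 8.6e-05). For both genes the leukemia and WT samples did not overlap. Isg15 and Zbp1 followed at log2 fold changes of 0.72 and 0.87. Of 19 interferon gamma responsive genes 8 stood higher and none lower (median 0.56), among them Gbp5, Gbp2, Igtp and Irgm1, guanylate-binding proteins and GTPases of cell-intrinsic defence, at 1.73, 0.83, 0.96 and 0.73, and Socs1, the feedback inhibitor of the pathway, at 0.86.

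The interferon-stimulated response element, GAAA and GAAA with 2 bases of any kind between them, is the site of the factor complexes that interferon activates. Searched on both strands of the same 250 bases, it is held by 25 of 54 promoters of both interferon lists (46.3%), by 9 of 20 promoters of their genes that stood higher in leukemia or with panobinostat (45%) and by 2.98% of all 32851 promoters. Of the 3 RefSeq promoters (GRCm38.p6) printed here to show the site, in capitals, Irgm1 lies at chr11:48871421-48871670, minus strand, Igtp at chr11:58199306-58199555, plus strand and Slfn5 at chr11:82951852-82952101, plus strand.
Irgm1: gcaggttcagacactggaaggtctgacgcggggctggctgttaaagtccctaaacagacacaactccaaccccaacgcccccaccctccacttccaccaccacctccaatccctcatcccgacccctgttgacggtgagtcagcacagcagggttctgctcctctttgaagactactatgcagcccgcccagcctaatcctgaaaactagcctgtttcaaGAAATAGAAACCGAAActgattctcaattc
Igtp: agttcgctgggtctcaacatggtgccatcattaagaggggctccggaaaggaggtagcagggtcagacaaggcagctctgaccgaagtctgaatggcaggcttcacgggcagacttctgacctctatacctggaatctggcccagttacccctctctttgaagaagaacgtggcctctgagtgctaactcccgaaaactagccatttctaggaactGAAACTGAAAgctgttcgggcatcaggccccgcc
Slfn5: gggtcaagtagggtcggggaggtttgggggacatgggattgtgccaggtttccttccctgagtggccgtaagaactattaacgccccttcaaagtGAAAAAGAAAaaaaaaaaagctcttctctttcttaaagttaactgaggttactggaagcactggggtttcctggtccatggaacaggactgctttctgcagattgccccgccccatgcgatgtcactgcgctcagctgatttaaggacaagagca
The match nearest the start began at position -24 in Irgm1, where neighbouring matches overlap, -34 in Igtp and -155 in Slfn5. Slfn5 stood higher in leukemia and had a panobinostat log2 fold change of -0.17 ± 0.10 SE, adjusted p = 0.53, whereas Irgm1 passed both tests.

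Sensors and T cell-facing molecules moved in both directions. Tlr3 (ENSMUSG00000031639, chr8:45395665-45411080), the double-stranded RNA sensor of cDC1, had 154, 165, 154 and 155 CPM in leukemia against 104 and 93.9 CPM in WT without overlap (log2 fold change 0.57 ± 0.07 SE, adjusted p = 1.5e-04), and Tmem173, which encodes STING, stood higher by 0.62. Cd40, the receptor for T cell help, had 57.1, 53.01, 52.7 and 45.3 CPM in leukemia against 29.4 and 33.4 CPM in WT, again without overlap (log2 fold change 0.62 ± 0.10 SE, adjusted p = 0.0016). Cxcl9 had 976, 1237, 792 and 569 CPM in leukemia against 551 and 522 CPM in WT, its vehicle-treated leukemia sample 2 lying close to WT (log2 fold change 0.59 ± 0.14 SE, adjusted p = 0.016). Its call was lost with DESeq2 (adjusted p = 0.45), without vehicle-treated leukemia sample 1, without the panobinostat WT sample and among members with no cycling UMI. Cd83 (-0.69) and Havcr2, the TIM-3 receptor (-0.59), stood lower, as did the chemokine Ccl5 (106, 95.96, 92.1 and 90.3 CPM in leukemia against 138 and 187 CPM in WT; log2 fold change -0.86 ± 0.10 SE, adjusted p = 9.8e-05). The panobinostat response of Ccl5 was called more positive in leukemia than in WT by the interaction test described below, so its leukemia difference depended on treatment. Of 20 maturation genes 1 stood higher and 4 lower (median -0.29), against 3.47% higher and 5.01% lower among all genes. The 6 markers of mature cells, of which the rule limits Ccr7 and Fscn1, summed to 35.6 to 51.2 CPM in leukemia against 59.9 and 61.6 CPM in WT, and their part in these levels was not tested.

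Of 17 growth factor and cytokine receptors 3 were called in leukemia, all of them lower, and the others were not called. Flt3, the receptor on which cDC1 numbers depend, had 83.3, 69.8, 95.2 and 99.1 CPM in leukemia against 106.4 and 105.6 CPM in WT (log2 fold change -0.39 ± 0.08 SE, adjusted p = 0.0094), a call lost without the panobinostat WT sample. Tgfbr1 (-0.85) and Ifngr1 (-0.26) were the other 2 of 17 receptors called, against 5.01% of all genes lower. Irf8 (0.14 ± 0.05 SE, adjusted p = 0.16) and Batf3 (0.04 ± 0.07 SE, adjusted p = 0.77) did not pass, while Nfil3 (-1.01) and Nr4a3 (-1.29) stood lower and Rbpj (0.26), the Notch effector, higher among 21 factors. Cxcr4, a receptor that retains cells in the marrow, stood lower (-1.35) and Ccr2 (1.41) and Cxcr3 (0.54) higher; all values in parentheses are log2 fold changes.

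Of the genes lower in leukemia than in WT, the smallest p belonged to Gm34084 (ENSMUSG00000113010, chr13:44472426-44504548), a predicted gene, with 90.9, 102, 83.4 and 99.5 CPM in leukemia against 336 and 432 CPM in WT (log2 fold change -2.13 ± 0.10 SE, adjusted p = 2.4e-09). Apoe (ENSMUSG00000002985, chr7:19696109-19699188), the lipid carrier apolipoprotein E, had 108, 127, 101 and 82.6 CPM in leukemia against 356 and 283 CPM in WT (log2 fold change -1.71 ± 0.08 SE, adjusted p = 3.5e-09). Ptgis, prostacyclin synthase, had 9.43, 10.1, 11.01 and 10.9 CPM in leukemia against 39.5 and 39.8 CPM in WT (log2 fold change -2.03 ± 0.11 SE, adjusted p = 2.1e-08). For these 3 genes the leukemia and WT samples did not overlap. Apoe is also a macrophage gene, and the macrophage marker sums given above lay at 26.0 to 75.5 CPM in leukemia and at 61.5 and 105 CPM in WT; C1qb, a defining macrophage gene, reached 0.786, 5.03, 3.07 and 1.76 CPM in leukemia against 13.7 and 6.08 CPM in WT. The part of macrophage RNA in the Apoe level was not tested.

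Il1b, the inflammatory cytokine, had 105, 91.9, 56.8 and 37.3 CPM in leukemia against 174 and 156 CPM in WT. The leukemia values were all below the WT values, and the vehicle-treated leukemia samples were the lowest (log2 fold change -1.33 ± 0.15 SE, adjusted p = 5.6e-05). Its panobinostat response was called more positive in leukemia than in WT by the interaction test described below. The single fold change therefore averages over treatments in which the leukemia difference was unlike. Sat1, a polyamine acetyltransferase (-0.89), Cytip (-0.78), Malt1, the paracaspase (-1.18), the phosphate transporter gene Slc20a2 (-1.12), Gp2 (-2.57) and Fam71a (-1.64) were others of the 10 lower genes with the smallest p, given as log2 fold changes. Malat1, the RNA with the largest Fano factor between cells, was lower as well at -0.52 ± 0.05 SE, adjusted p = 2.9e-05. Immediate early and stress genes leaned the same way: 8 of 18 stood lower and none higher (median -0.41), against 5.01% of all genes lower, among them Nr4a1, an activation-induced nuclear receptor, at 66.3, 60.1, 59.1 and 51.7 CPM in leukemia against 91.9 and 108 CPM in WT (log2 fold change -0.85 ± 0.10 SE, adjusted p = 6.3e-05). Junb, Nr4a2 and Hspa1a, also among the lower ones, were called by the interaction test too, so their leukemia difference depended on treatment. Of 18 cathepsin and lysosome genes 4 stood lower and none higher, with Cd63 at -0.97 and Lamp1 at -0.41.

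Chaperones and cytoskeletal genes completed the higher side. Of 19 endoplasmic reticulum genes 9 stood higher and none lower (median 0.23), against 3.47% of all genes higher, with Creld2 at 0.77, Sdf2l1 at 0.61, Pdia6 at 0.55 and Calr at 0.45 in log2 fold change. Of 16 vimentin, S100 and annexin genes 8 stood higher and none lower (median 0.32), Lgals1 (1.07), S100a10 (0.88) and Vim (0.69) among them. Of 26 S phase genes 6 stood higher, 5 of them the helicase subunits Mcm2 to Mcm6, and 1, Birc5, lower. No histone deacetylase (median 0.02) and no acetyltransferase or bromodomain reader was called, where 8.48% of all genes were. At an unadjusted p under 0.05 edgeR put 997 of all genes higher and 1093 lower. Without 1 hashed sample the total ran between 338 (without the vehicle WT sample) and 785 (without the panobinostat WT sample), with 432 without vehicle-treated leukemia sample 1. In the same fits 11 to 15 interferon-stimulated genes, 5 to 9 interferon gamma responsive genes, 6 to 9 endoplasmic reticulum genes and 7 to 9 vimentin, S100 and annexin genes stood higher, and 5 to 15 immediate early genes lower; after thinning 5 interferon-stimulated genes did.

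**Figure D4:**
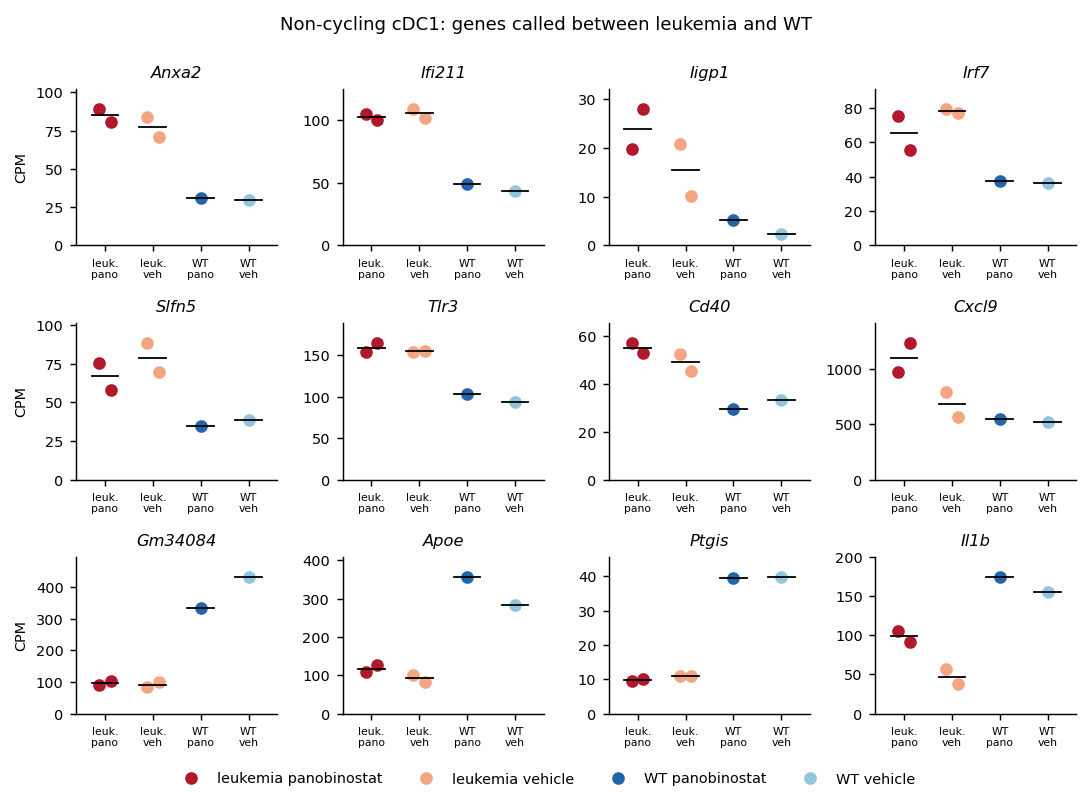
Levels in CPM of 12 genes in non-cycling cDC1, 1 point per hashed sample, in the order leukemia panobinostat, leukemia vehicle, WT panobinostat and WT vehicle, with a black line at each group's mean. Anxa2, Ifi211, Iigp1, Irf7, Slfn5, Tlr3, Cd40 and Cxcl9 lie higher in leukemia, and Gm34084, Apoe, Ptgis and Il1b lower.

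The response to panobinostat differed between disease states for a small set of genes. The interaction term called 48 of 9772 genes (0.491%, edgeR quasi-likelihood test), 33 with a more positive response in leukemia (0.338%) and 15 with a more negative one (0.153%). Of the immediate early genes 7 of 18 had a more positive and 1, Hspa1a, a more negative response in leukemia (median log2 difference 0.49, 16 positive). WT has 1 sample per treatment, so the spread comes from the leukemia pairs alone. The genes described next were the 10 with the smallest p and were chosen after their values were seen.

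Egr1 (ENSMUSG00000038418, chr18:34859823-34864984), an activation-induced transcription factor, had 249.9 and 355 CPM with panobinostat against 209 and 151 CPM with vehicle in leukemia-bearing mice, and 148 against 308 CPM in WT mice. The directions were opposite (log2 difference 1.83 ± 0.20 SE, adjusted p = 2.0e-06). S100a4, a calcium-binding protein, had 78.9 and 81.2 CPM with panobinostat against 56.1 and 35.9 CPM with vehicle in leukemia, and 55.1 against 94.3 CPM in WT (log2 difference 1.58 ± 0.19 SE, adjusted p = 1.1e-05). Apol7c (ENSMUSG00000044309, chr15:77524852-77533316), of the apolipoprotein L family, had 483 and 596 CPM with panobinostat against 306 and 253 CPM with vehicle in leukemia, and 668 against 737 CPM in WT (log2 difference 1.13 ± 0.15 SE, adjusted p = 4.0e-05). The panobinostat-treated leukemia samples lay between the vehicle-treated leukemia samples and both WT samples.

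Ms4a6c, a membrane protein of the MS4A family, had 70.5 and 69.1 against 26.9 and 24.3 CPM in leukemia and 31.5 against 27.9 CPM in WT, each as panobinostat against vehicle (log2 difference 1.31 ± 0.19 SE, adjusted p = 3.2e-04). Cd69, which retains cells in tissue, had 15.2 and 17.4 against 6.40 and 4.92 CPM in leukemia and 5.20 against 8.82 CPM in WT (log2 difference 2.29 ± 0.38 SE, adjusted p = 0.0021). Ltb, lymphotoxin beta, and Zfp36, which speeds decay of cytokine messages, differed by 1.49 and 0.85. In the other direction Ckb, brain-type creatine kinase, had 583 and 616 against 632 and 686 CPM in leukemia and 469 against 307 CPM in WT (log2 difference -0.70 ± 0.12 SE, adjusted p = 0.0021), and Gm26917 and Tnni2 differed by -0.77 and -0.75. DESeq2 called 2 genes for this term, thinning left 7 and removal of cells with many UMIs left 11, while all measured genes kept their direction. Without panobinostat-treated leukemia sample 1, panobinostat-treated leukemia sample 2 or vehicle-treated leukemia sample 1 the count was 171, 128 and 165, and without a WT sample the term cannot be estimated.

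**Figure D5:**
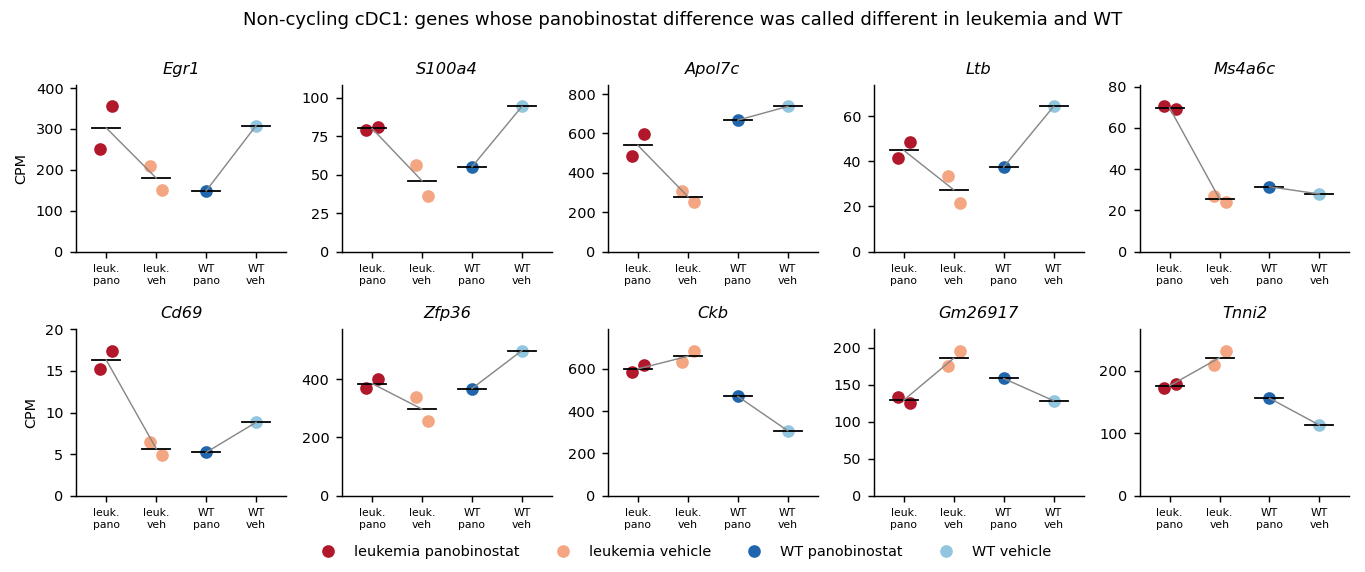
Levels in CPM of the 10 genes with the smallest p for a difference in panobinostat response between disease states, 1 point per hashed sample, panobinostat left of vehicle within leukemia and within WT, with a grey line joining the means. Lines for Egr1, S100a4, Ltb, Zfp36 and Cd69 slope in opposite directions in leukemia and WT, and those for Ckb, Gm26917 and Tnni2 do so the other way round.

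Against the cDC2 gate, the panobinostat response differed for 50 of 10525 genes (0.475%), 29 more positive in cDC1 (0.276%) and 21 more negative (0.2%). The 5 with the smallest p, chosen after their values were seen, include Ccr2, with cDC1 values given above and 51.1, 29.2 and 30.5 CPM in the cDC2 gate with panobinostat against 90.6, 81.9 and 26.1 CPM with vehicle (log2 difference 2.39 ± 0.30 SE, adjusted p = 4.2e-09). Malat1 differed by -0.40 ± 0.06 SE, adjusted p = 6.8e-07. The others were the immunoglobulin genes Iglc2, Jchain and Iglc3, for which the cDC2 gate of the vehicle WT sample held 3269, 388 and 392 CPM while cDC1 held at most 18.03, 3.93 and 8.35 CPM. The vehicle WT sample of the cDC2 gate stands apart for these, and with at least 6 UMIs asked of the cDC2 genes 4 genes were called and the difference for Jchain turned to -0.69. Iglc2, Iglc3 and Jchain were not called when either WT sample was left out. Without panobinostat-treated leukemia sample 1, vehicle-treated leukemia sample 1 or the vehicle WT sample 31, 33 and 21 were called.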

How the data were processed

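Splenic dendritic cells of C57BL/6 mice were measured with the 10x Genomics 3′ v3 assay in 1 pooled capture of 6 hashed samples. Per the labels and the file headers, the deposited matrices hold raw UMI counts per gene, hashtag and antibody for each barcode; the submitters' processing notes name Cell Ranger 3.1.0, Seurat 3.1.0 and the builds mm10 and GRCm38, with no role given. Any filter on barcodes before deposit is not given in the sources used here.

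Counts were summed over the gated cells of each hashed sample. edgeR 4.0.16 (R 4.3.3; TMM, filterByExpr by the 4 conditions, glmQLFit, glmQLFTest) tested 9772 genes with disease state and treatment as terms, and their interaction in a second fit; Benjamini-Hochberg adjusted p under 0.05 over all genes counts as a call. cDC1 and the cDC2 gate (at least 3 UMIs of Clec4a4, Dtx1 and Cd209a, at most 2 of the 4 cDC1 genes) were compared with the hashed sample as block, 10525 genes. Genes of the gates stayed in the library sizes and were not tested. The fits were tested on simulated data. The biological coefficient of variation was 6.34% in the additive fit.

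The cells and the gene lists were chosen with earlier results of these data known. Genes were named by rule: for panobinostat against vehicle and for leukemia against WT the 10 higher and 10 lower with the smallest p that passed, with a group mean of at least 10 CPM and no overlap within a disease state or treatment, plus up to 4 called members of each of 25 lists; for cDC1 against the cDC2 gate the 10 largest folds each way at 20 CPM or more; and the 15 largest Fano factors. Gene coordinates are from GENCODE vM21 (GRCm38; 538 of 538 symbols matched). Alternatives were DESeq2 1.42.0 and its size factors, no filter on low counts, other limits on hashtag ratio, markers, mitochondrial share, cycling UMIs and cell size (cells over 2 times the sample's median UMIs left out), thinning, a replicate block, leukemia samples alone and leaving out each hashed sample. Python 3.11.15 with numpy 2.4.6, scipy 1.17.1 and pandas 2.3.3 was used.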

Additional observations from a re-analysis of the deposited data

Results flagged for a closer look

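The response to panobinostat differed between leukemia-bearing and WT mice by the interaction test for 48 genes. Among them, as log2 differences of the response in leukemia minus that in WT, were Egr1 at 1.83, S100a4 at 1.58, Apol7c at 1.13, Ltb at 1.49, Ms4a6c at 1.31, Cd69 at 2.29, Zfp36 at 0.85, Ckb at -0.70, Gm26917 at -0.77 and Tnni2 at -0.75. WT has 1 sample per treatment, and DESeq2 called 2 genes for the same term.

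The response also differed between cDC1 and the cDC2 gate for 50 genes by the test of class by treatment. The log2 differences, cDC1 minus cDC2 gate, were 2.39 for Ccr2, 4.63 for Iglc2, 4.10 for Jchain, 2.27 for Iglc3 and -0.40 for Malat1. For Jchain the direction turned, to -0.69, with at least 6 UMIs asked of the cDC2 genes. For the 3 immunoglobulin genes the cDC2 gate of the vehicle WT sample stands apart from the other samples, and the part of B lineage RNA there was not tested.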

How the results depend on the processing

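For panobinostat against vehicle, 84 genes became 49 with DESeq2, 265 with no filter on low counts, 39 after thinning to 2000 UMIs, 175 in leukemia samples alone and 22 to 184 with 1 hashed sample left out. The replicate block, which treats leukemia number 1, leukemia number 2 and WT as blocks although nothing in the labels pairs them (2 pairs, correlation of deviations -0.069), gave 54. For leukemia against WT, 829 became 295 with DESeq2, 543 with no cycling UMI, 234 after thinning and 338 to 785 with 1 sample left out. For the difference between disease states, 48 became 2 with DESeq2, 111 with no filter, 76 at a hashtag ratio of 3, 25 and 28 at marker minimums of 10 and 4, 30 with no cycling UMI, 31 at 5% mitochondrial UMIs, 7 after thinning, 11 without large cells and 48 to 171 with 1 sample left out. cDC1 against the cDC2 gate gave 4260, 2282 after thinning and 2330 with the cDC2 gate at 6 UMIs; the difference in response between both gave 50, 1 with DESeq2, 11 after thinning, 4 with that gate and 21 to 64 with 1 sample left out. With that gate Stmn1 (0.015), Hmgb2 (0.13) and Jchain (-0.69) changed sign, and Siglec-H, taken as its part of the 2 antibody tags' UMIs, was 0.53 percentage points higher with panobinostat against a main difference of -3 UMIs. The causes were not tested, beyond the fewer counts that thinning keeps. Of the named genes' refits, 603 of 740 kept the call for panobinostat and 1280 of 1440 for leukemia, with 0 sign changes. Where a WT sample was left out, the other was taken to vary like the leukemia samples. Cell number limits depth: 205 cells in vehicle-treated leukemia sample 2 and 1302 in the vehicle WT sample.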
